A study of Mus musculus with 20 samples.

Results

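The mouse mitochondrial genome encodes 37 genes, and all 37 were found among the 55421 rows of the expression tables by their symbols, which start with mt-. They comprised 13 protein-coding genes, 2 ribosomal RNA (rRNA) genes and 22 transfer RNA (tRNA) genes, and no measured value was used to choose them. Of the 20 RNA libraries, 10 came from undifferentiated mouse stem cells of embryonic origin (ESC). The other 10 came from colonies differentiated into presomitic mesoderm (induced presomitic mesoderm, iPSM). The study asked how the circadian factors CLOCK and BMAL1 act on the segmentation clock.

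The mitochondrial chromosome is transcribed from both strands into long precursors. The tRNAs lie between most of the other genes and are cut out of the precursor, which frees the mRNAs and rRNAs. The mRNAs encode core subunits of respiratory complexes I, III and IV and of the ATP synthase, complex V, and all other respiratory chain subunits, the mitochondrial RNA polymerase and the mitochondrial ribosomal proteins come from nuclear genes. Stem cells in culture rely strongly on glycolysis, and the use of the respiratory chain changes as they differentiate.

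The ESC were of the line KY1.1. The iPSM colonies were differentiated from another ESC line, E14TG2a, and every iPSM line, the control included, carried pHes7-luc, a reporter with luciferase under the Hes7 promoter. In both cell types, clones carried doxycycline-inducible tetO-Clock/Bmal1 or tetO-Clock/Bmal1DN transgenes, and the labels give the genotype of a further line in each cell type as control. The Clock/Bmal1 clones were 1 and 7 in ESC and 12 and 20 in iPSM, and the Clock/Bmal1DN clones were 5 and 6 in ESC and 7 and 19 in iPSM. Each clone and each control line gave 1 untreated library and 1 library treated with doxycycline (dox), at 500 ng/mL for 6 h in ESC and at 1000 ng/mL for 2 h in iPSM. Doxycycline belongs to an antibiotic class known to inhibit mitochondrial translation, and the control line, treated in the same way, has 1 library per arm. The clones are separate lines, and p-values measure the spread between them.

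The libraries held 40315227 to 57299360 counted reads in ESC and 38184055 to 47767592 in iPSM. Stem cell markers summed to 1320 to 1922 CPM (counts of a gene scaled by the counted reads of its library) in ESC and 233 to 395 in iPSM. The 9 presomitic mesoderm markers summed to 30.0 to 135 CPM in ESC and 767 to 1366 CPM in iPSM, although the anterior marker Mesp2 stayed at 0.021 to 0.234 CPM in iPSM. Lfng, also in this list, covered similar ranges in both, 9.96 to 95.4 CPM in ESC and 8.14 to 96.0 CPM in iPSM. The 8 fibroblast feeder markers summed to 44.6 to 417 CPM in ESC, highest in the untreated library of Clock/Bmal1DN clone 6, and to 16.4 to 30.3 CPM in iPSM, whose parental cells were kept without feeders per the labels. Clock reached 318 to 1568 CPM in the treated ESC clones and 1043 to 2418 CPM in the treated iPSM clones, against 35.8 to 57.8 and 96.2 to 114 CPM in the untreated clones. Arntl, the gene of BMAL1, reached 1582 to 4255 CPM in the treated ESC clones and 3231 to 4604 CPM in the treated iPSM Clock/Bmal1 clones, but 153 to 905 CPM in the treated iPSM Clock/Bmal1DN clones, against 42.6 to 71.9 CPM in the untreated clones of both cell types. The untreated iPSM control library had reads on 69.4% of the rows and stood apart from the other 19 libraries, in which 43.8% to 54.0% of the rows had reads. The control libraries were part of the fit over all 20 libraries but of neither group compared between cell types.

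Levels differed by orders of magnitude among genes that share the same precursor. The deposited RPKM, which scale reads by gene length and library size, put mt-Co1, the catalytic core subunit of cytochrome c oxidase (complex IV), first in both cell types, with a median of 2252 RPKM over the ESC libraries and 3691 over the iPSM libraries. In ESC, mt-Nd1 (complex I, 66.3 RPKM), the large rRNA mt-Rnr2 (65.7 RPKM) and mt-Cytb, the cytochrome b of complex III (31.5 RPKM), followed. In iPSM, mt-Rnr2 came after mt-Co1 with 1044 RPKM, ahead of mt-Nd1 with 153 RPKM, mt-Cytb with 88.6 RPKM and the small rRNA mt-Rnr1 with 81.6 RPKM. The spread over libraries was wide enough that mt-Nd1 and mt-Rnr2 in ESC could not be ordered: mt-Rnr2 ranged from 19.2 to 336 RPKM there and mt-Nd1 from 27.7 to 117 RPKM.

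The other complex I mRNAs were lower. In ESC the median was 12.0 RPKM for mt-Nd5, 7.65 for mt-Nd6, 4.57 for mt-Nd2 and 4.51 for mt-Nd4, and in iPSM it was 24.7, 23.1, 11.3 and 11.03 RPKM. Of these, mt-Nd6 is the only protein-coding gene on the opposite strand, together with 8 of the tRNA genes. Whether the authors' counting used the strand is not given in the sources used here, so reads from mt-Nd6 and from antisense precursor cannot be told apart.

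A further group of protein-coding genes had almost no counts. The other complex IV subunits stayed low, with 0.5 to 11 counts per library for mt-Co2 and 11 to 40 for mt-Co3. The ATP synthase subunits mt-Atp6 and mt-Atp8 had at most 3.5 and 2.0 counts in any library, and the complex I subunits mt-Nd4l and mt-Nd3 at most 5.0 and 27.0. Thus mt-Co1 and mt-Co2, whose proteins are needed in equal amounts in the same enzyme, were listed with median levels of 2252 and 0.0786 RPKM in ESC.

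Nuclear copies of mitochondrial DNA match many of these genes. On mm10 chromosome 1, annotated pseudogenes between 24611535 and 24616197 copy the stretch of the mitochondrial genome from mt-Co1 to mt-Nd4, and further copies lie on chromosome 2. For each gene, the share of its 101-base windows (the read length) that occur without any mismatch in another transcript of the GENCODE vM21 annotation was 99.5% for mt-Co2 (in Gm28661 and Gm13341), 99.5% for mt-Atp6 (Gm10925), 99.9% for mt-Co3 (Gm28437), 97.6% for mt-Nd3 (Gm28438) and 98.5% for mt-Nd4l (Gm10222). It was 60.7% for mt-Nd4 (Gm28439), 30.7% for mt-Co1 (Gm13340 and Gm29216) and 3.09% for mt-Nd2 (Gm13339). It was 0.0% for mt-Nd1, mt-Nd5, mt-Nd6, mt-Cytb, both rRNAs and every tRNA (each tRNA searched at its whole length). It was also 0.0% for mt-Atp8, which had almost no counts. Bases 162 to 204 of mt-Atp8 match Gm10925 without any mismatch, but this stretch is shorter than a window. The rest of a copy of mt-Atp8 would lie between Gm10925 and Gm28661. The search covered annotated transcripts only, so stretches of the chromosome 1 block between the pseudogenes were not searched. How the authors treated reads that fit several places is not given, and the part of the copies in the low counts was not tested. The values of mt-Co2, mt-Atp6, mt-Co3, mt-Nd3, mt-Nd4l and mt-Nd4 are therefore uncertain as measures of those transcripts. For mt-Co1 this holds for the 30.7% of windows with a copy. Copies of mt-Atp8 and of the tRNAs from mt-Ts1 to mt-Tr, mt-Tk and mt-Tg among them, would lie in the stretches not searched. Their values are uncertain too.

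The 5′ ends of 3 genes and their copies show how close these sequences are. They come from GENCODE vM21 transcripts, each on its own sense strand from its first base, and capitals mark the bases that differ between a gene and its copy. The genes lie on mm10 chrM:7013-7696 (mt-Co2), chrM:9459-9806 (mt-Nd3) and chrM:5328-6872 (mt-Co1), all on the plus strand, and the copies on chr1:24614885-24615565 (Gm28661), chr1:24612775-24613119 (Gm28438) and chr2:22588103-22589647 (Gm13340), all on the minus strand.
mt-Co2: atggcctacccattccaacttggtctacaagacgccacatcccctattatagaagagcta
Gm28661: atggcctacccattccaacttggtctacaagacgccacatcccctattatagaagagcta
mt-Nd3: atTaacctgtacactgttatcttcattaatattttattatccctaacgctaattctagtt
Gm28438: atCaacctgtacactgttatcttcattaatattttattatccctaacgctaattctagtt
mt-Co1: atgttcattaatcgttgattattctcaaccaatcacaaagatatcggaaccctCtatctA
Gm13340: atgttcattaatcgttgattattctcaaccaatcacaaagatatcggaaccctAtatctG
Over the 681 bases compared, mt-Co2 and Gm28661 did not differ at all. Over 345 bases, mt-Nd3 and Gm28438 differed by the single substitution T3C (mitochondrial base first, counted from 1 at the 5′ end), at chrM position 9461. By contrast, mt-Co1 and Gm13340 differed at 37 of 1545 bases, of which C54A and A60G fall in the stretch shown.

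**Figure D1:**
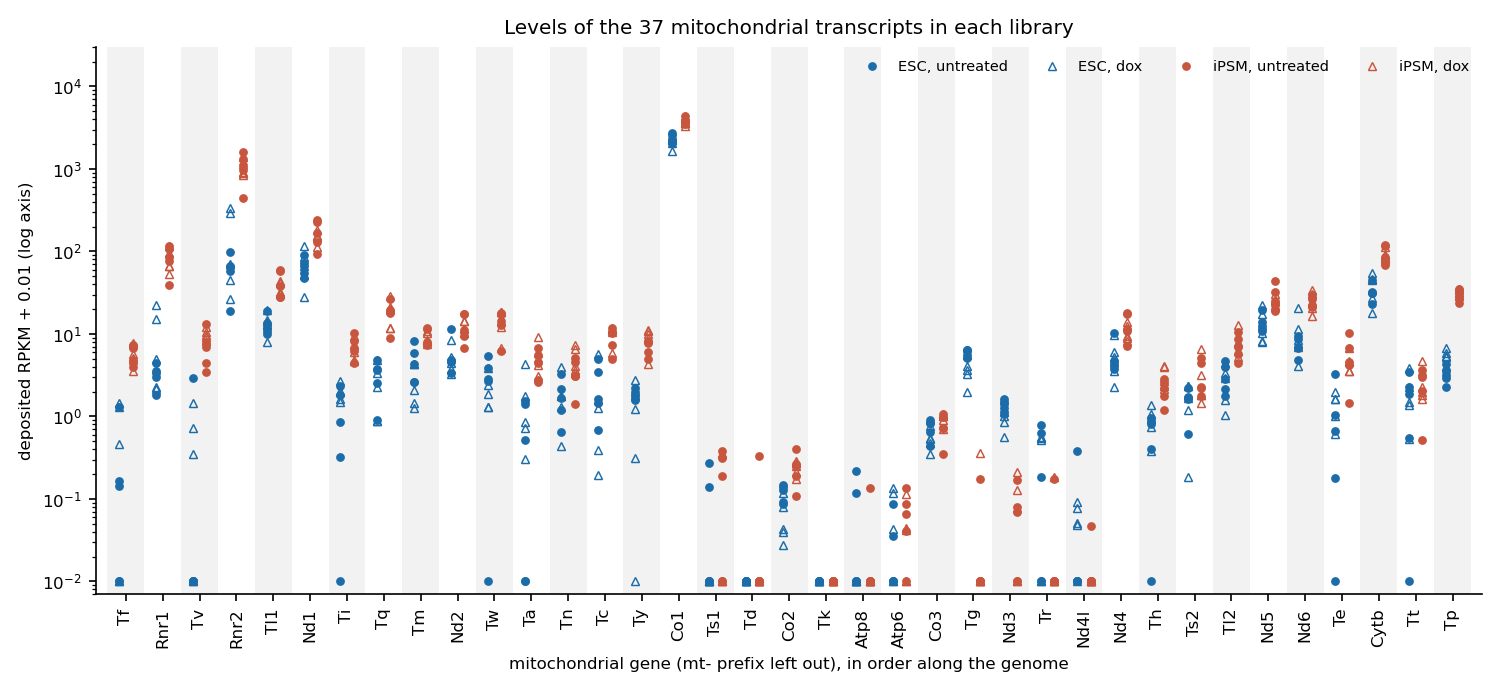
Deposited RPKM plus 0.01 on a log axis for each of the 37 genes, in their order along the mitochondrial genome; each point is a library, blue for ESC and red for iPSM, filled circles for untreated and open triangles for dox. Points on the bottom line are at 0. mt-Co1 was highest in every library, and the genes from mt-Ts1 to mt-Nd4l sat at or near the bottom, except mt-Co3, and mt-Tg and mt-Nd3 in ESC.

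The tRNA genes are 59 to 75 bases long, shorter than the reads, so a full-length read cannot lie inside a single tRNA gene. Only 4 tRNAs reached 1 CPM in any library: mt-Tl1, mt-Tp, mt-Tq and mt-Tw. The leucine tRNA mt-Tl1, which sits between mt-Rnr2 and mt-Nd1, was the highest, with medians of 13.2 RPKM in ESC and 35.1 in iPSM. At the other end, mt-Tk had 0 counts in all 20 libraries, which allows at most 0.0786 CPM in the shallowest library (3 counts, counting error only), and mt-Td had 1.0 count in a single iPSM library. After the filter on low counts, 22 of the 37 genes could be tested in ESC (9 protein-coding, 2 rRNA and 11 tRNA), 28 in iPSM (9, 2 and 17) and 30 in the fit over all libraries (10, 2 and 18).

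iPSM and ESC were compared to ask how the mitochondrial transcripts differ between the cell types. The mitochondrial RNAs took up a larger share of the iPSM libraries. In the untreated ESC clones 1, 7, 5 and 6 they made up 0.379%, 0.456%, 0.427% and 0.360% of all counted reads, and in the untreated iPSM clones 12, 20, 7 and 19 they made up 0.851%, 0.666%, 1.01% and 0.745%. The control lines gave 0.348% and 0.891%. All iPSM values lay above all ESC values, and the 95% binomial (Wilson) interval of each share reached at most 0.00316 percentage points to either side, which covers counting error only. Cell type, parental line, culture and feeder markers differ together between these groups and cannot be told apart, and in bulk RNA fewer cells of a kind and less RNA per cell cannot be told apart either.

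**Figure D2:**
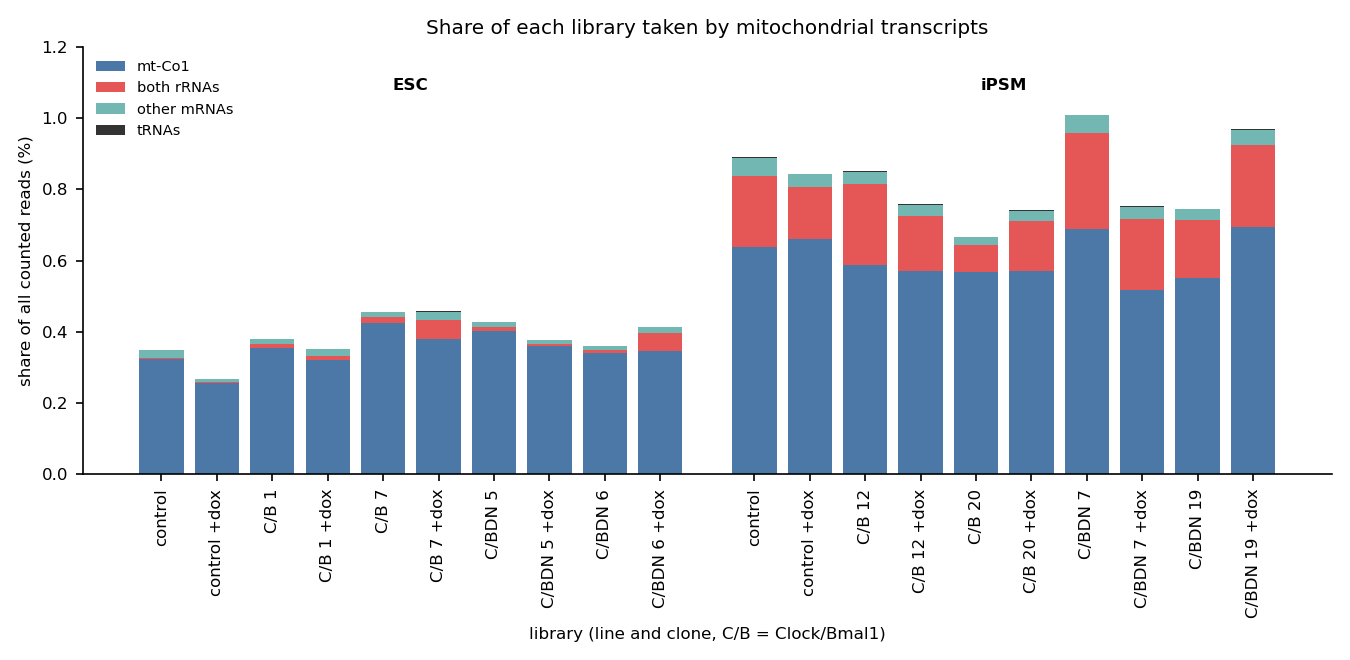
Share of all counted reads (percent) taken by mitochondrial transcripts in each library, stacked as mt-Co1, both rRNAs, the other mRNAs and the tRNAs; C/B stands for Clock/Bmal1. ESC libraries reached at most 0.457% and iPSM libraries ranged from 0.666% to 1.01%; the rRNA part was visible in all iPSM libraries and, among ESC, mainly in the treated clones 7 and 6.

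The makeup of this share differed as well. mt-Co1 held 83.0% to 95.5% of the mitochondrial reads in ESC and 68.1% to 85.2% in iPSM, while the rRNAs held 0.929% to 12.0% in ESC and 11.2% to 26.8% in iPSM. The mRNAs other than mt-Co1 held 2.74% to 5.89% and 3.47% to 5.69%, and the tRNAs 0.0721% to 0.115% and 0.117% to 0.191%.

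Between untreated clones, 4 against 4, 18 of the 30 genes tested were higher in iPSM and 2 were lower (edgeR, adjusted p under 0.05), beside 60.0% of all features that passed in either direction, 31.3% higher and 28.8% lower. The median difference was 1.26 on the log2 scale over the 30 genes, also with genes at 0 in a group set to their bounds, and 0.053 over all features. In 20 of the 30 genes every iPSM clone lay above every ESC clone, and in 2 every iPSM clone lay below, beside 33.9% and 22.2% of all features. Scaling by library totals alone moved the median of all features to 0.257, and 23 genes then passed.

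**Figure D3:**
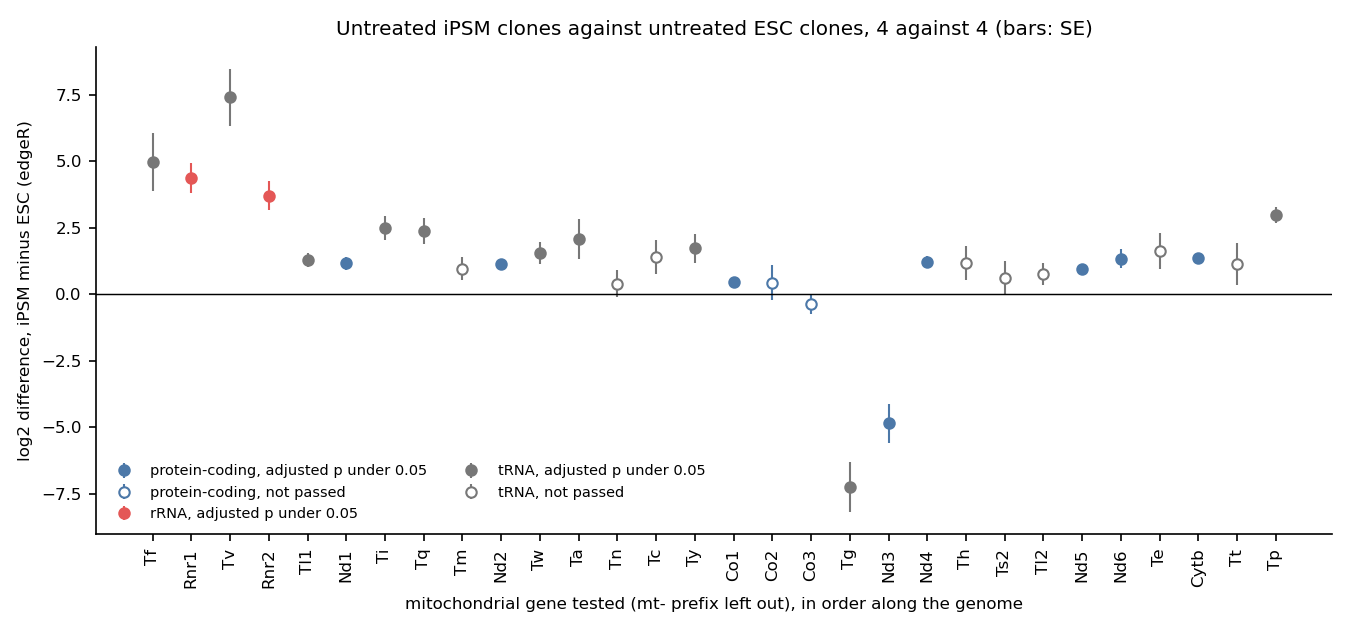
Fitted log2 difference (edgeR, untreated iPSM clones minus untreated ESC clones, 4 against 4, bars are SE) for the 30 genes tested, in their order along the mitochondrial genome; filled points passed at an adjusted p under 0.05, with rRNAs in red, protein-coding genes in blue and tRNAs in grey. Both rRNAs lay above every mRNA, and mt-Tg and mt-Nd3 stood alone below 0 among the genes that passed; the fitted values of mt-Tv and mt-Tg rest on a group at 0 and are no bound.

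The rRNAs differed most among the well counted genes. mt-Rnr2 had 107, 156, 102 and 91.2 CPM in ESC clones 1, 7, 5 and 6 and 2149, 710, 2601 and 1551 CPM in iPSM clones 12, 20, 7 and 19. mt-Rnr1 had 4.27, 3.23, 3.37 and 2.88 CPM in ESC and 114, 37.9, 103.5 and 75.1 in iPSM. The groups were far apart for both, and clone 20 was the lowest iPSM clone each time. The fitted difference was 3.70 ± 0.54 (log2, SE, n = 4 and 4; adjusted p = 2.86e-05, edgeR) for mt-Rnr2 and 4.36 ± 0.56 (adjusted p = 7.68e-06) for mt-Rnr1. In treated clones the difference for mt-Rnr2 was 2.31 (edgeR adjusted p = 0.00123). The kit named in the labels is of a type that depletes cytoplasmic and mitochondrial rRNA before sequencing, so the counts are what depletion left over, and its part in this difference was not tested. The nuclear rRNA-like row Gm26917 went the other way, with 183 ± 42.8 CPM (SD, n = 4) in ESC and 73.5 ± 17.4 CPM in iPSM.

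Among the mRNAs, mt-Cytb had 35.9, 35.5, 36.7 and 26.1 CPM in ESC clones 1, 7, 5 and 6 and 100.4, 78.1, 136 and 84.3 CPM in iPSM clones 12, 20, 7 and 19. The groups did not overlap, and the difference was 1.35 ± 0.18 (adjusted p = 8.56e-06). mt-Nd4 had 6.56, 5.12, 5.96 and 5.72 CPM in ESC and 15.9, 9.78, 24.5 and 15.1 CPM in iPSM. mt-Nd2 had 4.84, 4.7, 4.99 and 3.54 CPM in ESC and 11.6, 7.1, 18.3 and 9.84 CPM in iPSM. Both were higher in every iPSM clone, by 1.23 ± 0.21 (adjusted p = 0.000107) and 1.13 ± 0.22 (adjusted p = 0.000359).

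The remaining complex I mRNAs differed by similar amounts. mt-Nd1 averaged 57.5 ± 10.5 CPM (SD, n = 4) in ESC and 153 ± 61.7 in iPSM, a difference of 1.17 ± 0.25 (SE; adjusted p = 0.000752). mt-Nd5 averaged 22.4 ± 2.42 and 51.9 ± 20.8 CPM, a difference of 0.97 ± 0.17 (adjusted p = 0.000153). mt-Nd6 averaged 4.14 ± 0.714 and 12.1 ± 1.32 CPM, a difference of 1.34 ± 0.36 (adjusted p = 0.00455). mt-Nd6 overlaps the end of mt-Nd5 on the opposite strand, and in treated clones its difference was 0.84 and did not pass (adjusted p = 0.0564).

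mt-Co1 differed least of the mRNAs that passed. It had 3546, 4250, 4023 and 3391 CPM in ESC clones 1, 7, 5 and 6 and 5887, 5676, 6875 and 5523 CPM in iPSM clones 12, 20, 7 and 19, a difference of 0.45 ± 0.12 (adjusted p = 0.00523). The groups did not overlap. mt-Co2 (0.43 ± 0.65, adjusted p = 0.592) and mt-Co3 (-0.38 ± 0.35, adjusted p = 0.367) did not pass. As a ratio of RPKM within a library, mt-Co1 stood at 20.8 to 59.6 times mt-Nd1 in ESC and 17.0 to 39.4 times in iPSM, so these ranges overlap.

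Of the 18 tRNAs tested, 9 were higher in iPSM and 1 was lower, beside 31.3% and 28.8% of all features. The proline tRNA mt-Tp on the opposite strand had 0.21 ± 0.055 CPM (SD, n = 4) in ESC and 1.96 ± 0.316 in iPSM, a difference of 2.98 ± 0.29 (adjusted p = 5.41e-07). mt-Tl1 had 1.02 ± 0.265 and 2.88 ± 1.07 CPM, a difference of 1.29 ± 0.26 (adjusted p = 0.000539). mt-Tq rose from 0.19 ± 0.0934 to 1.15 ± 0.348 CPM and mt-Tw from 0.243 ± 0.0837 to 0.858 ± 0.329 CPM, with fitted log2 differences of 2.37 (edgeR adjusted p = 0.000665) and 1.56 (adjusted p = 0.00516). The isoleucine tRNA mt-Ti (2.49), the alanine tRNA mt-Ta (2.09) and the tyrosine tRNA mt-Ty (1.72) also passed. The call for mt-Ta was lost in 5 of the alternative fits, among them those without ESC clone 1 or 5 or iPSM clone 12 or 19 (edgeR adjusted p = 0.0699 to 0.1195).

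Of the tRNAs next to the rRNA genes, mt-Tf and mt-Tv had few counts in ESC. By contrast, mt-Tl1, directly downstream of mt-Rnr2, had 29.5 to 66.5 counts per ESC library. The phenylalanine tRNA mt-Tf, upstream of mt-Rnr1, had 0.5, 5.0, 0.0 and 0.5 counts in untreated ESC clones 1, 7, 5 and 6 and 23.5, 14.5, 19.5 and 13.0 in iPSM clones 12, 20, 7 and 19. The valine tRNA mt-Tv, between both rRNA genes, had 0 counts in all 4 untreated ESC clones and 25.5, 13.5, 35.5 and 11.5 in the iPSM clones, which is at least 33.5-fold higher against a floor of 3 counts over the group. The untreated ESC control library held 9.0 counts of mt-Tv, and the treated ESC clones 0.0 to 4.0. The tRNAs tested that did not pass were mt-Tm, mt-Tn, mt-Tc, mt-Th, mt-Ts2, mt-Tl2, mt-Te and mt-Tt, with fitted differences from 0.41 (mt-Tn) to 1.61 (mt-Te), all above 0. By strand, the median difference was 1.17 over 11 tRNAs encoded on the plus strand and 1.72 over 7 on the minus strand.

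Of the genes that passed, only the rows of mt-Nd3 and the neighbouring glycine tRNA mt-Tg were lower in iPSM. In ESC, mt-Nd3 had 22, 21, 25, 22 and 27 counts in the untreated control, clones 1, 7, 5 and 6, and in the iPSM it had 1.0, 0.0, 2.5, 0.0 and 1.0 in the untreated control, clones 12, 20, 7 and 19. mt-Tg (chrM:9391-9458, directly upstream of mt-Nd3) had 19.0, 21.0, 24.0, 14.5 and 20.5 counts in the same ESC libraries and 0.0, 0.0, 0.5, 0.0 and 0.0 in the iPSM libraries. Every ESC library, treated ones included, lay above every iPSM library for both genes. The count ratio of mt-Nd3 was 27.8 (95% interval 9.22 to 137, counting error only), and mt-Tg was at least 23.1-fold lower in iPSM. The adjusted p was 3.75e-05 and 2.67e-05 (edgeR).

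The mt-Tg gene sequence, from its first base on the plus strand, is shown because its counts differed between the ESC and the iPSM libraries. Cell type and parental line cannot be told apart in this difference. No exact copy of it was found in another annotated transcript, but the stretch between Gm28438 and Gm28437, where a copy of it would lie, is not annotated and was not searched.
mt-Tg: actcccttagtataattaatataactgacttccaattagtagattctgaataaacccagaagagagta

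The nuclear copy of mt-Nd3 went the opposite way. Gm28438, which differs from mt-Nd3 at the third base shown above, had 0.0 to 5.0 counts in the 10 ESC libraries and 12.0 to 47.0 in the 10 iPSM libraries, a difference of 3.71 ± 0.60 between untreated clones (adjusted p = 7.5e-05). Summed over the 10 libraries of a cell type, mt-Nd3 and Gm28438 had 188 and 14.5 counts in ESC and 10.5 and 345.5 in iPSM. Cell type and parental line cannot be told apart in these values. Other rows of nuclear copies that reached 1 CPM in a library did not pass: Gm28437, the copy of mt-Co3, gave 0.93 ± 0.46 (adjusted p = 0.0903), and the mt-Co1 copies Gm29216 and Gm13340 gave 0.20 ± 0.39 (adjusted p = 0.691) and 0.016 ± 0.253 (adjusted p = 0.992). Adding the rows of the chromosome 1 block left the mean share in untreated iPSM clones at 0.818%.

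**Figure D4:**
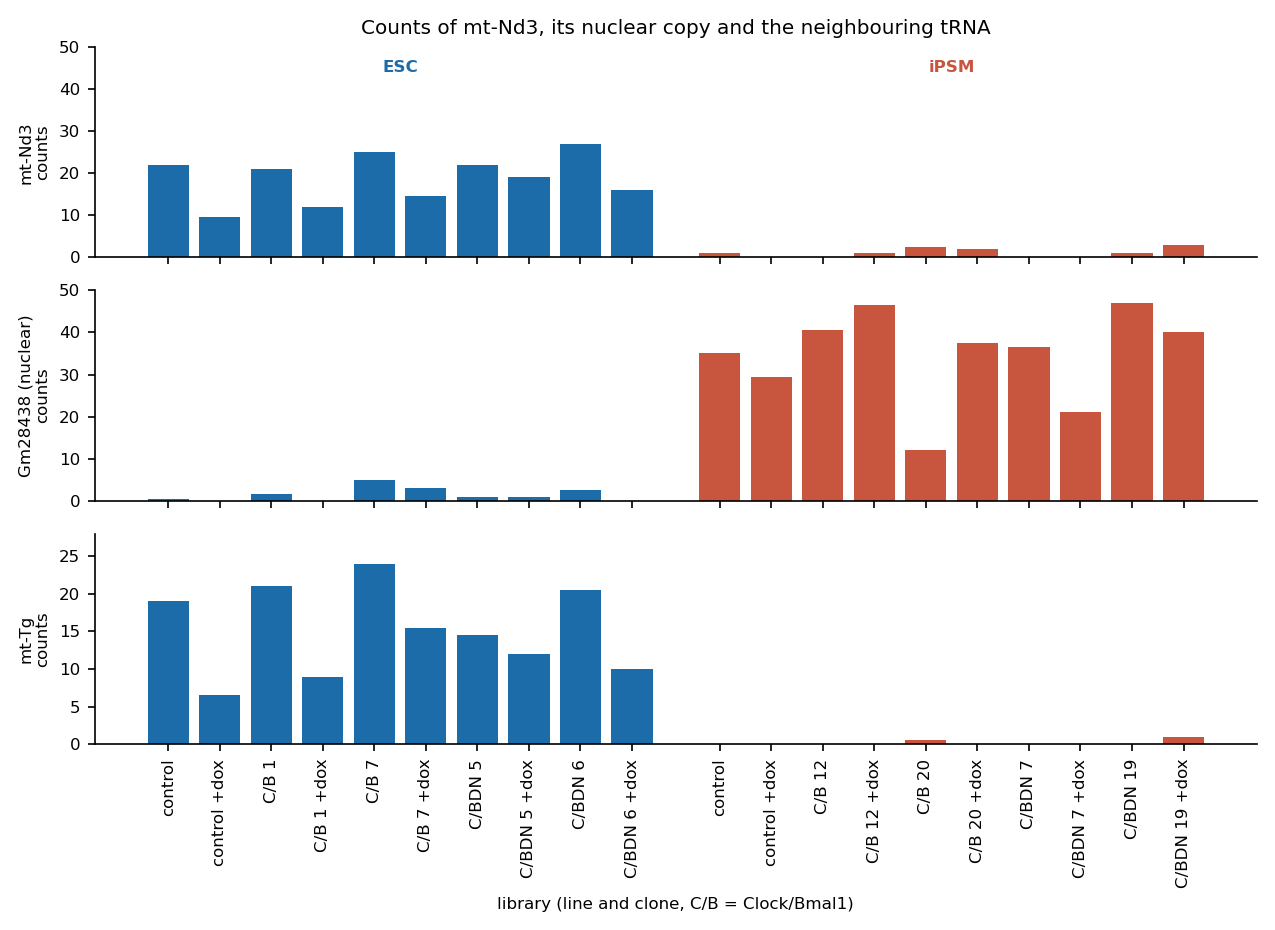
Counts per library of mt-Nd3, of its nuclear copy Gm28438 and of mt-Tg; blue bars are ESC and red bars iPSM libraries, and C/B stands for Clock/Bmal1. mt-Nd3 ranged from 9.5 to 27.0 counts in ESC and 0.0 to 3.0 in iPSM, while Gm28438 ranged from 0.0 to 5.0 and 12.0 to 47.0.

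Nuclear genes for mitochondrial functions moved mostly the other way between the cell types. Of 78 nuclear respiratory chain subunits, 3 were higher and 51 lower in iPSM, and of 78 mitochondrial ribosomal proteins, 5 were higher and 57 lower, beside the 31.3% and 28.8% of all features. The medians were -0.41 and -0.63 on the log2 scale. The complex III core subunit Uqcrc1 fell by 1.61 (adjusted p = 5.57e-08), from 331 ± 8.29 to 126 ± 12.3 CPM (SD, n = 4), the complex I subunit Ndufs5 fell by 1.90 and the ATP synthase subunits Atp5b and Atp5g1 fell by 1.05 and 1.60. Of the ribosomal proteins, Mrps12 fell by 2.52, Mrpl17 by 1.63, Mrpl45 by 1.55 and Mrpl15 by 1.27. Among 13 chaperones and proteases, 9 were lower and 0 higher, including the protease subunit Clpp (-1.76) and the chaperones Dnaja3 (-1.33) and Hspa9 (-0.94) and the protease Lonp1 (-0.71).

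Genes for mitochondrial transcription and RNA processing were also tested, beside the 31.3% of all features that were higher and the 28.8% that were lower. Of 10 genes for the mitochondrial RNA polymerase and its cofactors, 1 was higher and 4 lower: the polymerase Polrmt fell by 0.83 (adjusted p = 4.39e-05), the elongation factor Tefm by 1.16 and Mterf1a by 0.89, and Mterf3, a negative regulator of mitochondrial transcription, was higher by 0.54. Of 26 genes for RNA processing and decay, 1 was higher and 18 lower. The higher gene was Grsf1, an RNA-binding protein of mitochondrial RNA granules, which had 61.7 ± 6.21 CPM in ESC and 883 ± 43.3 CPM in iPSM, 12.4-fold higher (adjusted p = 6.1e-10). Elac2 and Prorp, which cut the 3′ and 5′ ends of tRNAs, fell from 166.5 ± 11.9 to 63.6 ± 2.19 CPM (adjusted p = 1.05e-08) and from 62.0 ± 4.203 to 33.3 ± 2.21 CPM (adjusted p = 6.07e-07). The tRNA-modifying enzyme Mto1 fell from 59.0 ± 1.91 to 34.2 ± 2.41 CPM.

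For replication of mitochondrial DNA, 1 of 10 genes was higher and 5 were lower, with Primpol higher by 1.07 and Endog, Mgme1 and Rnaseh1 lower, at -1.54, -1.34 and -1.002. Of 14 regulators of mitochondrial gene programmes, 4 were higher and 4 lower. Of all features, 31.3% were higher and 28.8% lower, so the regulators as a list did not stand out. Among them were Gabpb1, a subunit of nuclear respiratory factor 2, higher by 0.94, and Sirt1 and Myc lower, at -1.16 and -2.29. Ppargc1a, a coactivator that drives mitochondrial biogenesis, passed at 0.752 ± 0.365 CPM in iPSM and 0.0132 ± 0.017 CPM in ESC, which is close to no counts in ESC. Both tested rows of nuclear rRNA-like sequence, Gm26917 and Gm42418, were lower in iPSM, at -1.53 and -1.36.

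In ESC, dox was given for 6 h to ask what induced Clock/Bmal1 or Clock/Bmal1DN changes. With Clock/Bmal1, 0 of the 22 mitochondrial genes tested passed (edgeR), beside 0.422% of all features (0.404% higher and 0.0178% lower), 4 had an unadjusted p under 0.05 (mt-Nd4, mt-Cytb, mt-Nd5 and mt-Tt), beside 7.49% of all features, and DESeq2 also called 0. mt-Nd4 had 6.56 and 13.4 CPM in clone 1 without and with dox and 5.12 and 8.36 CPM in clone 7. mt-Cytb had 35.9 and 63.2 CPM in clone 1 and 35.5 and 53.5 CPM in clone 7. mt-Nd5 had 25.5 and 41.5 CPM in clone 1 and 23.0 and 31.6 CPM in clone 7. In 8 of the 22 genes both treated libraries lay above both untreated ones (22.9% of all features), these 3 among them, and in 2 genes, mt-Co3 and mt-Nd3, both lay below (16.8% of all features). The 3 genes had fitted differences of 0.81 ± 0.30 (adjusted p = 0.55), 0.62 ± 0.25 (adjusted p = 0.606) and 0.51 ± 0.21 (adjusted p = 0.643).

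mt-Nd2 (0.49 ± 0.30) and mt-Nd1 (0.49 ± 0.33) had fitted differences above 0 with adjusted p-values of 0.724 and 0.739, and mt-Co1 had -0.23 ± 0.17 (adjusted p = 0.753). mt-Co3 had -0.45 ± 0.48 (adjusted p = 0.82). Of the 9 protein-coding genes tested, 5 were higher with dox in clone 1 and 6 in clone 7. The 5 that were higher in both, mt-Nd1, mt-Nd2, mt-Nd4, mt-Nd5 and mt-Cytb, differed by 0.19 to 0.91 in clone 1 and by 0.18 to 0.68 in clone 7 (log2). These 5 mRNAs were picked after their values were seen, so their shared direction is no result, and they are followed in the other lines beside the tally over all 9. The threonine tRNA mt-Tt had 2.0 and 10.5 counts in clone 1 and 0.0 and 4.0 in clone 7, which is too few to place a size on. mt-Nd6 had 3.56 and 2.11 CPM in clone 1 and 4.92 and 10.6 CPM in clone 7, so the clones went opposite ways.

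The control line went the other way for the same mRNAs. With dox, mt-Nd4 went from 14.1 to 3.14 CPM, mt-Cytb from 52.3 to 20.8 CPM and mt-Nd1 from 87.1 to 26.5 CPM, and mt-Nd2 from 12.0 to 3.35 CPM. The 5 mRNAs were lower by 1.15 to 2.06 on the log2 scale, and 2 of the 9 protein-coding genes were higher. Values for single libraries are log2 ratios of scaled CPM with a prior count of 2. The untreated control library was above, and the treated control library below, all 4 untreated clones for mt-Nd1, mt-Nd2, mt-Nd4, mt-Nd5 and mt-Cytb. There is 1 library per arm, so these differences have no replicate check.

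Clock/Bmal1DN in ESC gave 0 of 22 genes (edgeR), beside 0.00444% of all features, 0 with an unadjusted p under 0.05, and 0 by DESeq2. The clones disagreed: the 5 mRNAs were all lower in clone 5, by -0.43 to -0.073, and 4 of 5 were higher in clone 6, from -0.25 to 0.87. Of all 9 protein-coding genes, 1 was higher in clone 5 and 5 in clone 6. The fitted differences were 0.35 ± 0.25 for mt-Cytb, 0.24 ± 0.33 for mt-Nd1, 0.021 ± 0.303 for mt-Nd4, -0.026 ± 0.306 for mt-Nd2 and -0.33 ± 0.21 for mt-Nd5 (adjusted p = 0.983 to 0.999). Feeder markers in clone 6 fell from 417 to 59.0 CPM between its untreated and treated libraries, and their part in these values was not tested.

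The rRNAs showed the largest differences of single clones. With dox, mt-Rnr2 went from 156 to 535 CPM in Clock/Bmal1 clone 7 and from 91.2 to 469.7 CPM in Clock/Bmal1DN clone 6. It went from 107 to 111 CPM in clone 1, from 102 to 72.3 CPM in clone 5 and from 30.6 to 42.1 CPM in the control line. mt-Rnr1 went from 3.23 to 14.7 CPM in clone 7 and from 2.88 to 21.4 CPM in clone 6, and lay between 1.75 and 4.80 CPM in the other libraries. The fitted differences were 1.32 ± 0.85 and 1.83 ± 0.87 for mt-Rnr1 and 1.25 ± 0.81 and 1.42 ± 0.81 for mt-Rnr2 (Clock/Bmal1 and Clock/Bmal1DN; edgeR adjusted p = 0.726 to 0.983). A clone of each transgene thus showed several-fold higher rRNA counts with dox and the other clone of the same transgene did not. Here too the rRNA counts are what depletion left over, and its part in these differences was not tested.

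Over the 4 ESC clones together, the mean dox effect passed for 0 of 22 genes, beside 0.0622% of all features. The 3 genes with an unadjusted p under 0.05 (7.48% of all features) were mt-Rnr1 (1.58 ± 0.61), mt-Rnr2 (1.33 ± 0.57) and mt-Cytb (0.49 ± 0.18), each with an adjusted p of 0.6365 in edgeR, and DESeq2 called 0. Without the filter on low counts, both rRNAs passed for Clock/Bmal1 (adjusted p = 0.0226 for mt-Rnr1 and 2.28e-06 for mt-Rnr2) and for the mean over the clones (6.77e-07 and 6.71e-15). Without treated clone 7 the Clock/Bmal1 value of mt-Rnr2 was -0.32 in place of 1.25, and without treated clone 6 its mean over the clones was 0.425. For mt-Rnr1 the Clock/Bmal1 value was 0.28 without treated clone 7, in place of 1.32, and the mean was 0.36 without treated clone 6, in place of 1.58. With the clone as a block the mean for mt-Rnr2 was 0.87 (adjusted p = 0.538). The Clock/Bmal1 effect differed from the Clock/Bmal1DN effect for 0 genes (0.0578% of all features), with mt-Nd5 (0.84 ± 0.30, adjusted p = 0.912) and mt-Tt under an unadjusted p of 0.05 (4.76% of all features) and 0 by DESeq2.

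In all 5 ESC lines, the control line included, 3 of the 22 genes were lower with dox (mt-Nd3, mt-Tg and mt-Co1) and 2 were higher (mt-Tp and mt-Ta), beside 3.52% and 3.12% of all features. In iPSM, 0 of the 28 genes tested were higher in all 5 lines and 0 were lower, beside 1.6% and 2.6% of all features. A count of 0 among 28 genes is near these shares and sets iPSM in no contrast with ESC. The ESC differences ranged from -1.05 to -0.19 for mt-Nd3 and from -1.44 to -0.13 for mt-Tg, and the mean over the clones was -0.42 ± 0.34 (adjusted p = 0.69) and -0.50 ± 0.40 (adjusted p = 0.688). mt-Ta had only 0.0 to 12.0 counts per ESC library. Without and with dox it had 1.5 and 2.5 counts in clone 5 and 6.0 and 5.0 in clone 7. Its sign in these clones thus depends on rounding and scaling. mt-Co1 ranged from -0.26 to -0.08, mt-Ta from 0.002 to 1.33 and mt-Tp from 0.11 to 1.27, with a mean over the clones for mt-Tp of 0.71 ± 0.44 (adjusted p = 0.637). None of these sizes exceeded the spread between clones by the test.

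**Figure D5:**
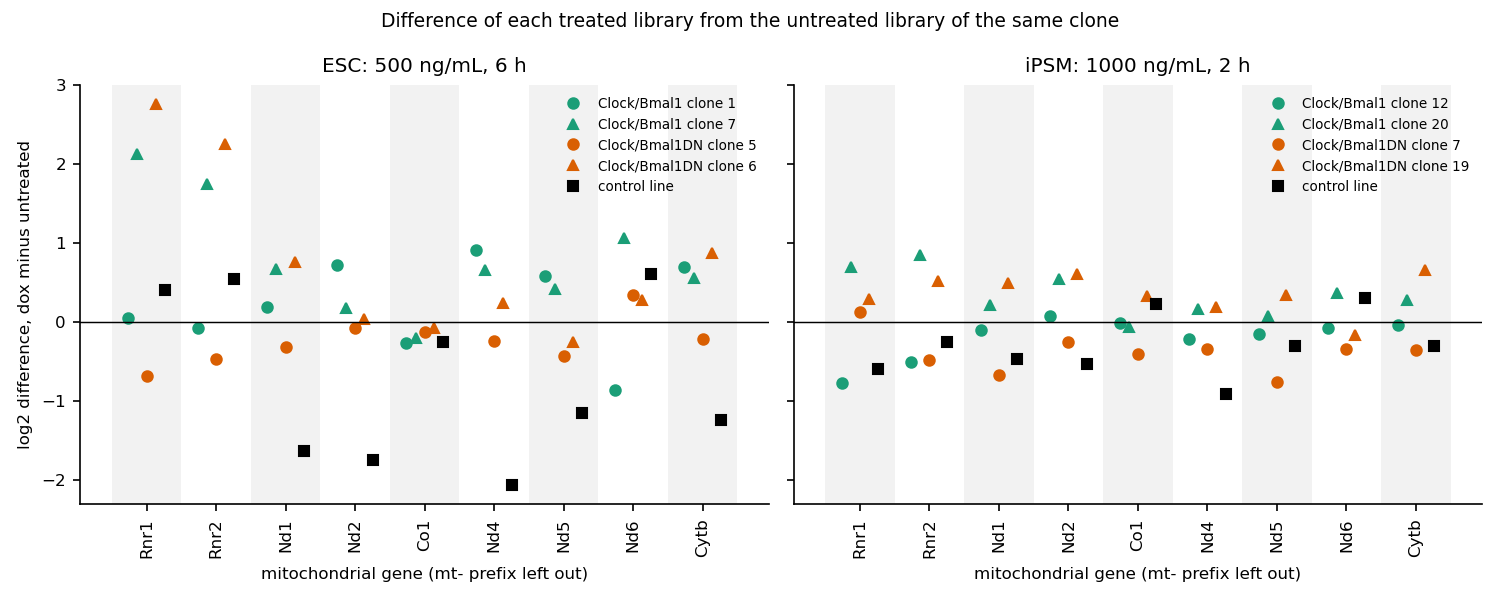
Log2 difference between the treated and the untreated library of each line for the 9 well counted genes, in ESC (left) and iPSM (right); green is Clock/Bmal1, orange Clock/Bmal1DN and black squares the control line. In ESC both rRNAs stood at 1.74 to 2.76 in clones 7 and 6 and at 0.55 or below in the other lines, and the control line was at -1.15 or below for mt-Nd1, mt-Nd2, mt-Nd4, mt-Nd5 and mt-Cytb.

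In iPSM, dox was given for 2 h. With Clock/Bmal1, 0 of 28 genes passed (edgeR), beside 1.02% of all features (0.996% higher and 0.0282% lower), 0 had an unadjusted p under 0.05, and DESeq2 called 0. mt-Nd4 had 15.9 and 13.4 CPM in clone 12 without and with dox and 9.78 and 11.5 CPM in clone 20. mt-Cytb had 100.4 and 95.5 CPM in clone 12 and 78.1 and 99.9 CPM in clone 20. mt-Nd2 had 11.6 and 11.9 CPM in clone 12 and 7.1 and 10.9 CPM in clone 20. The treated and untreated ranges overlapped for all 3, and the fitted differences were -0.051 ± 0.243, 0.12 ± 0.20 and 0.28 ± 0.27 (adjusted p = 1 for each).

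The clones split here as well. mt-Rnr2 went from 2149 to 1473 CPM in clone 12 and from 710 to 1345 CPM in clone 20, and mt-Rnr1 from 114 to 64.8 CPM and from 37.9 to 64.8 CPM. Both clones thus ended at nearly the same rRNA counts left after depletion, from opposite sides, and the fitted differences were -0.006 ± 0.361 and -0.21 ± 0.34. Over the 17 tRNAs tested, the median log2 difference with dox was 1.11 in clone 20 and -0.21 in clone 12. Several of these tRNAs had few counts, such as 4.5 for mt-Tn and 8.5 for mt-Ta in untreated clone 20. Each clone has 1 library per arm, so the 17 tRNAs are not separate observations. The untreated library of clone 20 was the lowest untreated iPSM clone for mt-Rnr1, mt-Rnr2, mt-Nd1, mt-Nd2, mt-Nd4, mt-Nd5 and mt-Cytb.

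With Clock/Bmal1DN in iPSM, 0 of 28 genes passed (edgeR), beside 0.00403% of all features, and 0 had an unadjusted p under 0.05; DESeq2 called 0. The 5 mRNAs were all lower with dox in clone 7, by -0.76 to -0.25, and all higher in clone 19, by 0.19 to 0.66, while 1 and 7 of all 9 protein-coding genes were higher. mt-Co1 went from 6875 to 5181 CPM in clone 7 and from 5523 to 6930 CPM in clone 19. In the iPSM control line all 5 mRNAs were lower, by -0.91 to -0.30, and 3 of the 9 were higher. Over the 28 genes the fitted differences ran from -0.45 ± 0.91 for mt-Tt to 0.84 ± 0.77 for mt-Th.

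The mean over the 4 iPSM clones and the difference between the transgenes each passed for 0 of 28 genes (edgeR; 0.238% and 0.278% of all features), with 0 under an unadjusted p of 0.05 and 0 by DESeq2. The SE of the mean lay between 0.11 (mt-Co1) and 0.26 (mt-Rnr2) for the 9 well counted genes. The Clock/Bmal1 effects in iPSM and in ESC, which also differ in dose and time, differed for 0 of 30 genes (0.0% of all features), with mt-Nd4 alone under an unadjusted p of 0.05 (-0.91 ± 0.41, edgeR adjusted p = 1) and 0 by DESeq2. On simulated counts with the spread of the ESC Clock/Bmal1 comparison, 8% of genes changed 2-fold and 83% of those changed 4-fold were recovered. There were 13 false calls among the 22500 genes. Most 2-fold changes would thus have been missed in that comparison. The changed genes were drawn from genes with higher counts only, so these rates do not cover members with few counts. No dox comparison in iPSM was simulated.

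Nuclear genes of the mitochondrial lists did not pass with dox in either cell type: 0 of 10, 10, 26, 78, 78 and 13 genes for transcription, replication, RNA processing, the respiratory chain, ribosomal proteins and chaperones, and 0 of 13 or 14 regulators, in the Clock/Bmal1 comparisons. Of all features, 0.422% passed in ESC and 1.02% in iPSM. Counts of 0 in lists of this size are near those shares and are no result about these genes. In ESC the smallest unadjusted p-values belonged to Esrra, a nuclear receptor that drives mitochondrial genes (16.2 ± 2.24 without and 36.3 ± 5.34 CPM with Clock/Bmal1, n = 2 each, edgeR adjusted p = 0.297), and to Tefm (44.9 ± 4.97 and 30.6 ± 2.61 CPM, adjusted p = 0.363). Lower in treated clones, without passing, were Elac2 (-0.44), Mrpl23 (-0.57), Clpp (-0.44), Ndufb11 (-0.43) and Top1mt (-0.48). In iPSM the coactivator Ppargc1b had 10.9 ± 5.88 CPM without and 30.7 ± 10.8 CPM with Clock/Bmal1 (1.497 ± 0.324, adjusted p = 0.0634), and Polrmt (-0.17), Ssbp1 (-0.24), Grsf1 (-0.23), Uqcrc1 (-0.19), Mrps2 (-0.24) and Afg3l2 (0.18) had an adjusted p of 1.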

How the data were processed

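Total RNA was sequenced from libraries made with the Gold version of the TruSeq Stranded Total RNA kit (101-base paired reads), per the labels' protocols. The submitters' processing notes name bcl2fastq, STAR 2.7.2a, HOMER and the build mm10. The deposited tables hold, per gene body, estimated counts in steps of 0.5 (18.1% of all values are not whole) and RPKM, both made by the authors, per the file headers. The deposited counts were rounded to whole numbers and tested with edgeR 4.0.16 (TMM scaling, filterByExpr, quasi-likelihood test, Benjamini-Hochberg adjustment over all features tested, threshold 0.05). Dox contrasts used the 10 libraries of a cell type in 6 groups, with 22500 features in ESC and 24805 in iPSM, and the comparison of cell types used all 20 libraries and 26689 features. CPM divide a count by all counted reads of its library in the deposited table. DESeq2 1.42.0, other scalings, no filter, a clone block and leaving out each library were tried. Exact copies were searched with BLAST+ 2.17.0 and string matching in GENCODE vM21 transcripts.

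Treated and untreated libraries of the same clone are paired by the labels. Their deviations correlated by 0.422 and -0.013 (ESC Clock/Bmal1 and Clock/Bmal1DN) and by 0.189 and 0.087 (iPSM), across features. The fits were tested on simulated data. The rule for the members used their symbols and no measured value, but the topic and the gene lists were chosen with earlier results of these data known. Named by rule were all protein-coding and rRNA members, the tRNAs tested or reaching 1 CPM, up to 4 genes per list that passed (smallest adjusted p) and, where none passed, the gene with the smallest p, given here for the Clock/Bmal1 comparisons, as well as rows of nuclear copies reaching 1 CPM.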

Additional observations from a re-analysis of the deposited data

Results flagged for a closer look

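A sample far from the others of its group was looked for in 44 groups of 4 clones (11 measures, 2 cell types, 2 treatments), where chance flags about 1 in 20 groups, and 2 were found. mt-Cytb was 26.1 CPM in the untreated ESC Clock/Bmal1DN clone 6, while the other 3 untreated ESC clones lay between 35.5 and 36.7 CPM. That library also had the highest summed feeder markers, 417 CPM, and its part in the low value was not tested. The summed share of mitochondrial transcripts was 0.968% of the counted reads in the treated iPSM Clock/Bmal1DN clone 19, while the other 3 treated iPSM clones lay between 0.742% and 0.758%.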

How the results depend on the processing

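Without the filter on low counts, 2 members (mt-Rnr1 and mt-Rnr2) passed in place of 0 for Clock/Bmal1 in ESC, Clock/Bmal1DN in ESC, the mean over the ESC clones and the difference of the Clock/Bmal1 effects between cell types; the features called then went from 95 to 537, 1 to 463, 14 to 725 and 0 to 87. In contrasts that kept 0 members, they went from 13 to 410 (difference of the transgenes, ESC) and in iPSM from 254 to 597 (Clock/Bmal1), 1 to 8 (Clock/Bmal1DN), 59 to 278 (mean) and 69 to 280 (difference). DESeq2 called 0 members with dox, but 359 features in place of 95 for Clock/Bmal1 in ESC, 7 in place of 1 for Clock/Bmal1DN, 161 in place of 14 for the mean and 130 in place of 13 for the difference of the transgenes, and in iPSM 164 in place of 59 for the mean and 154 in place of 69 for the difference, and 15 in place of 0 between cell types. The untreated iPSM share of 0.818% was 0.634% over protein-coding members only, with clones from 0.582% to 0.738%. In the untreated ESC clones the mean share over all members was 0.405%, and over protein-coding members only the clones ranged from 0.350% to 0.439%. Leaving out 1 library gave 0 to 0 members in every dox contrast and 19 to 22 members between cell types (20 with all libraries), and features called for Clock/Bmal1 then ranged from 7 to 90 in ESC and from 83 to 678 in iPSM. 2 values reversed: mt-Rnr2 with Clock/Bmal1 in ESC was -0.32 without treated clone 7 and ranged from -0.32 to 1.997 over the libraries left out, and mt-Nd4 over the ESC clones was -0.053 (adjusted p = 0.985) with the clone as a block and the control line as a further pair. The causes were not tested. The replicate block gave 0 members in every dox contrast and so changed no call of a member; it moved the features called for Clock/Bmal1 from 95 to 158 in ESC, and for the mean over clones from 14 to 27 in ESC and from 59 to 135 in iPSM, and for the difference of the transgenes from 13 to 25 and from 69 to 132. No paired analysis was possible between iPSM and ESC because they share no clones. Of 280 values of single members between cell types under alternatives, 274 stayed past the threshold in the same direction and 6 did not (mt-Ta in 5 and mt-Nd6 in 1). With 2 clones per group and few counts on most tRNAs, depth and clone number limit what could be detected.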
